A study of Homo sapiens with 12 samples.

Results

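The 10 genes described here encode proteins that move copper, organic cations or platinum drugs across membranes: SLC31A1, SLC31A2, ATOX1, ATP7A, ATP7B, SLC22A2, SLC22A3, SLC47A1, LRRC8A and LRRC8D. They were chosen by symbol, for what their products are known to do, and all 10 were among the 46350 named genes of the count files. RNA was sequenced from 12 libraries in 4 groups of 3: untreated SKOV3, SKOV3 with PAE (paeonol, a plant phenol), untreated SKOV3/DDP, and SKOV3/DDP with PAE. SKOV3 is an established epithelial ovarian cancer line labelled as sensitive to cisplatin, and SKOV3/DDP is its resistant counterpart, a single line. No group is labelled as having received cisplatin at harvest, and neither the dose nor the duration of PAE is in the labels. The series describes biological as well as experimental triplicates without saying which kind the numbered libraries are, so the spread between libraries may be partly technical.

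Copper enters cells mainly through SLC31A1 (CTR1) and is handed by the chaperone ATOX1 to the P-type ATPases ATP7A and ATP7B, which load cuproenzymes in the secretory pathway and export surplus metal. SLC31A2 (CTR2) is a related, largely intracellular protein that affects copper mobilization from vesicles. The organic cation transporters SLC22A2 and SLC22A3 carry cisplatin or oxaliplatin inward in transfected cells, and SLC47A1 (MATE1) exports organic cations in exchange for protons, chiefly in kidney and liver. LRRC8A is the obligatory subunit of the volume-regulated anion channel, and channels that also contain LRRC8D conduct cisplatin. These are statements of background about proteins. The libraries measured mRNA.

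Several features of the libraries bear on every value below. Library totals lay between 14610008 and 18263479 counts. The 3 untreated SKOV3 libraries stood apart from the other 9 by base composition. In each of them, the deviation of a gene from its mean over the libraries correlated positively with transcript GC content (Spearman's rho 0.652 to 0.658 across 15090 genes), whereas rho was between −0.527 and −0.325 in the other 9. That mean includes the 3 untreated SKOV3 libraries, so the negative sign in the other 9 is partly set by them. Untreated SKOV3 is 1 whole group, so this trend and the comparisons that use the group cannot be told apart, and each such fold change is given with its value after a smooth trend on GC content and length had been removed from every library. Within groups, SKOV3/DDP replicate 2 and SKOV3/DDP with PAE replicate 3 stood apart from their companions, with a chi-square per gene of 92.6 to 101 and of 69.1 to 88.1, against 16.6 and 22.0 for the remaining pair of each of these groups. In SKOV3 the pairs with replicate 2 gave 39.5 and 60.4 and the remaining one 20.7, and all pairs of SKOV3 with PAE gave 65.7 to 71.4. Mitochondrial genes held 1.29% to 2.44% of counts in SKOV3 with or without PAE and 3.93% to 11.2% in SKOV3/DDP.

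The labelled cell type was checked against marker genes. The epithelial list summed to between 4621 and 5228 CPM (TMM-normalized counts scaled to a common library size) in SKOV3, 676 and 1344 in PAE-treated SKOV3, 10644 and 12864 in SKOV3/DDP, and 2337 and 3346 in SKOV3/DDP with PAE. KRT8 and KRT18 made up most of it in SKOV3, at 3311 and 1498 CPM, and fell to 552 and 485 with PAE. EPCAM and CDH1 rose there, from 1.26 to 6.33 and from 7.63 to 53.8 CPM. Of the 5 genes, 2 were called higher and 2 lower with PAE in SKOV3 (3 and 1 with the trend removed), where 75.3% of all genes were called. In SKOV3/DDP, EPCAM, KRT19 and CDH1 measured 289, 1349 and 442 CPM, against 1.26, 7.66 and 7.63 in SKOV3. Of the 6 ovarian and Müllerian markers, SOX17 had no count in any library and WT1 averaged at most 0.1 CPM in a group, while ERBB2 and MSLN gave most of a sum of 104 to 510 CPM. From SKOV3 to SKOV3/DDP without PAE, PAX8 (29.7 to 4.13 CPM), MUC16 (2.09 to 0.390) and ERBB2 (306 to 96.5) were lower and MSLN (149 to 388) higher. In both contrasts between the lines 1 of the 4 tested was called higher and 3 lower, with or without the trend removed. All genes called made up 84.7% without PAE and 54.5% with it. All 5 intestinal epithelial markers (CDX1, CDX2, VIL1, CDH17 and LGALS4) were present in SKOV3/DDP, where their sum was 531 to 576 CPM, and in SKOV3/DDP with PAE, at 163 to 249 CPM. The same sum stayed between 0.158 and 0.887 CPM in SKOV3 with or without PAE, where CDX1 had no count. Both contrasts between the lines therefore run alongside these differences in markers, and their part in the transporter values was not tested. With PAE in SKOV3/DDP, 4 of 5 epithelial and 5 of 5 intestinal epithelial markers were called lower, where 26.4% of all genes were called. The part of these changes in the transporter values was not tested either. Fibroblast, endothelial and immune markers summed to at most 17.2, 10.6 and 104 CPM, the last almost entirely CD68, with PTPRC and CD3E at or near 0. In bulk RNA, fewer cells of a kind and less RNA per cell cannot be told apart.

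The sequences around the start sites of copper genes and of both channel subunits are shown here as a description. On GRCh38, SLC31A1 lies on chromosome 9 (113221544 to 113264492, forward strand), ATP7A on chromosome X (77910693 to 78050395, forward), ATP7B on chromosome 13 (51932669 to 52012130, reverse) and ATOX1 on chromosome 5 (151742822 to 151758631, reverse). LRRC8A lies on chromosome 9 (128882133 to 128918042, forward) and LRRC8D on chromosome 1 (89821014 to 89936611, forward). The 300 bases printed span a start site, most of them upstream of it, and read 5′ to 3′ along the gene, from RefSeq on GRCh38.p14, which held entries for 7 of the 10 genes. Where a gene has several start sites, 1 is shown. Capitals mark the GC box GGGCGG and the metal response element core (TGCGCNC or TGCACNC) on either strand. Overlapping matches of the core run together.
SLC31A1, chr9:113221294-113221593, forward: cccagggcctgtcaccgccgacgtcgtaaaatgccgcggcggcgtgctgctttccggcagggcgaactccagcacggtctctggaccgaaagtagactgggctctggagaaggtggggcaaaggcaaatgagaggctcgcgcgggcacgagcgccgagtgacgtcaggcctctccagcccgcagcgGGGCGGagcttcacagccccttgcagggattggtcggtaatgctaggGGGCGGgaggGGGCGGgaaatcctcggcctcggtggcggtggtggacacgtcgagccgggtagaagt
ATP7A, chrX:77910443-77910742, forward: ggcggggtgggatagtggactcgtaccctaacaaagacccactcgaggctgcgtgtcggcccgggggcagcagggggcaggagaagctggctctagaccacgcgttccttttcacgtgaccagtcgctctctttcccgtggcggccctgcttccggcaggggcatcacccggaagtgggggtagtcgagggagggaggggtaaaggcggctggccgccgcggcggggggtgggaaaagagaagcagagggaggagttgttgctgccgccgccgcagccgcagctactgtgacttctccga
ATP7B, chr13:52012083-52012382, reverse: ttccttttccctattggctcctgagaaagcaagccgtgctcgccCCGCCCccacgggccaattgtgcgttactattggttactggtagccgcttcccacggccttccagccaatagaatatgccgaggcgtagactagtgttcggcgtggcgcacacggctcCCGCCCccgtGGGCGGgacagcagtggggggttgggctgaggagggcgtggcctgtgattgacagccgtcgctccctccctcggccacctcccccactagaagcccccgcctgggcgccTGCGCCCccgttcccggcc
ATOX1, chr5:151758582-151758881, reverse: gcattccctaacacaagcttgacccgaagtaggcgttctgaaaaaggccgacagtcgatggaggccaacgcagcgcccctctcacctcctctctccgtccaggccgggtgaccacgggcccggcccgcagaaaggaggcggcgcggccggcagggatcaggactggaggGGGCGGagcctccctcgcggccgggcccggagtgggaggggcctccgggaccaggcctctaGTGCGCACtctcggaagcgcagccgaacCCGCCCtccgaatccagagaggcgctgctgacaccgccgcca
LRRC8A, chr9:128881883-128882182, forward: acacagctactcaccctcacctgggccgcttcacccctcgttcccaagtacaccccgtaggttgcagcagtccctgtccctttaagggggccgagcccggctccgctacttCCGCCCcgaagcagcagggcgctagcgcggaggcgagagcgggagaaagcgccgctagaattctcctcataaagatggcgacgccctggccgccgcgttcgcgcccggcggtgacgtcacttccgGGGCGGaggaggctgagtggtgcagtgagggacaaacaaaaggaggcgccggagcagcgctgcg
LRRC8D, chr1:89820782-89821081, forward: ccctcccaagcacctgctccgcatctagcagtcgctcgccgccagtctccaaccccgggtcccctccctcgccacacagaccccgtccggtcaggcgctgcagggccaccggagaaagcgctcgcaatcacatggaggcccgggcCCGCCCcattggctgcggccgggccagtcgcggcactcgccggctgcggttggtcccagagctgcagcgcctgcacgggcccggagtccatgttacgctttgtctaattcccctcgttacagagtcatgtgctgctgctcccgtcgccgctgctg
The SLC31A1 window held 3 GC boxes and no metal response element core. ATP7B held 3 GC boxes and 1 core, ATOX1 held 2 of each, and LRRC8A and LRRC8D held 2 and 1 GC boxes with no core. Windows at further start sites differed. The LRRC8D one held 3 GC boxes and 1 core, 1 of ATP7B held 3 GC boxes and 2 cores, and neither motif was found in another of ATP7B or in the LRRC8A one. Neither motif occurred in the ATP7A window, which held 1 E box (CACGTG). Across 35116 windows of this length, 45% held a GC box, 29.6% held a metal response element core and 7.26% held an E box. A match of letters is a description of the window and does not show binding. All the windows printed were rich in G and C (66.7% to 70%), unlike the transcripts, whose GC content ran from 38.9% in ATP7A, 42.8% in LRRC8D, 44.0% in SLC31A1 and 44.7% in ATOX1 to 52.1% in ATP7B and 57.6% in LRRC8A.

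Copper uptake was represented by 1 abundant and 1 scarce gene. SLC31A1 measured 31.9, 20.1 and 27.6 CPM in replicates 1 to 3 of SKOV3, 149, 103 and 124 in PAE-treated SKOV3, 57.2, 108 and 36.7 in SKOV3/DDP, and 70.5, 60.7 and 152 in SKOV3/DDP with PAE. The SKOV3 libraries were the lowest of the 12, and in each SKOV3/DDP group 1 library lay well above its companions: replicate 2 without PAE and replicate 3 with PAE, which are the libraries that stood apart within their groups. SLC31A2 (chromosome 9, 113150976 to 113164140, forward) stayed between 0.210 and 1.14 CPM, and its 4 groups overlapped. It shares its locus with FKBP15 on the opposite strand, which averaged 41.7 CPM, and strand use in counting is not stated in the sources used here, so the source of these few reads is uncertain.

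ATOX1 had its highest levels in untreated SKOV3. Its values were 123, 130 and 114 CPM there, 29.5, 36.8 and 32.0 in PAE-treated SKOV3, 54.8, 40.4 and 66.8 in SKOV3/DDP, and 37.7, 30.3 and 25.5 in SKOV3/DDP with PAE. Both PAE groups overlapped each other and lay below their untreated counterparts. ATOX1 is short (471 bases in the files), and per kilobase its mean level was the highest of the 10 genes in each group, from 66.2 ± 13.0 CPM per kb in SKOV3/DDP with PAE to 260 ± 17.2 in SKOV3 (SD, n = 3).

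The copper ATPases were expressed at lower levels and followed different courses. ATP7A, whose loss of function causes Menkes disease, measured 6.56, 1.62 and 3.90 CPM in SKOV3, 35.1, 26.8 and 32.7 in PAE-treated SKOV3, 23.01, 20.5 and 18.7 in SKOV3/DDP, and 14.1, 17.2 and 23.4 in SKOV3/DDP with PAE. Untreated SKOV3 was lowest and SKOV3 with PAE highest, with no overlap between these and the SKOV3/DDP libraries, while the SKOV3/DDP groups overlapped. ATP7B, the gene of Wilson disease, measured 5.14, 2.98 and 2.97 CPM in SKOV3, 6.62, 10.6 and 6.37 in PAE-treated SKOV3, 28.7, 20.7 and 24.4 in SKOV3/DDP, and 17.2, 20.9 and 25.7 in SKOV3/DDP with PAE. All 6 SKOV3/DDP libraries exceeded all 6 SKOV3 libraries. The ATP7B pseudogene ATP7BP1 had no counts.

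Among the cation carriers, SLC22A2 (OCT2; chromosome 6, 160216755 to 160258821, reverse) was essentially undetected. It had 2 counts in SKOV3 with PAE, 1 in SKOV3/DDP with PAE and none in the untreated groups. A count of 0 over 3 libraries allows up to 0.0862 CPM in SKOV3 and 0.0606 CPM in SKOV3/DDP, for counting error only, and the gene did not pass the filter for testing. SLC22A3 (OCT3; chromosome 6, 160348378 to 160454982, forward) was low, at 0.443, 0.256 and 1.02 CPM in SKOV3, 0.989, 0.965 and 1.47 in PAE-treated SKOV3, 2.25, 4.99 and 1.90 in SKOV3/DDP, and 4.86, 5.87 and 4.07 in SKOV3/DDP with PAE. Every SKOV3/DDP library was above every SKOV3 library. SLC47A1 (chromosome 17, 19533854 to 19579034, forward) showed the opposite order, with 13.3, 9.37 and 10.3 CPM in SKOV3, 10.3, 12.2 and 6.31 in PAE-treated SKOV3, 4.38, 4.48 and 3.80 in SKOV3/DDP, and 3.29, 3.24 and 3.52 in SKOV3/DDP with PAE. Each SKOV3 library, with or without PAE, exceeded each SKOV3/DDP library.

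Of the channel subunits, LRRC8A measured 210, 152 and 184 CPM in SKOV3, 101, 93.0 and 73.4 in PAE-treated SKOV3, 91.4, 96.8 and 108 in SKOV3/DDP, and 177, 159 and 169 in SKOV3/DDP with PAE. The untreated SKOV3 and the PAE-treated SKOV3/DDP libraries formed the upper range, and the other 6 lay below them. LRRC8D measured 15.6, 7.41 and 12.03 CPM in SKOV3, 130, 108 and 137 in PAE-treated SKOV3, 26.0, 43.6 and 30.2 in SKOV3/DDP, and 64.5, 60.1 and 82.8 in SKOV3/DDP with PAE. Its 4 groups did not overlap at all, and both PAE groups lay above both untreated groups. LRRC8A overlaps KYAT1 on the opposite strand, which averaged 11.02 CPM.

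**Figure D1:**
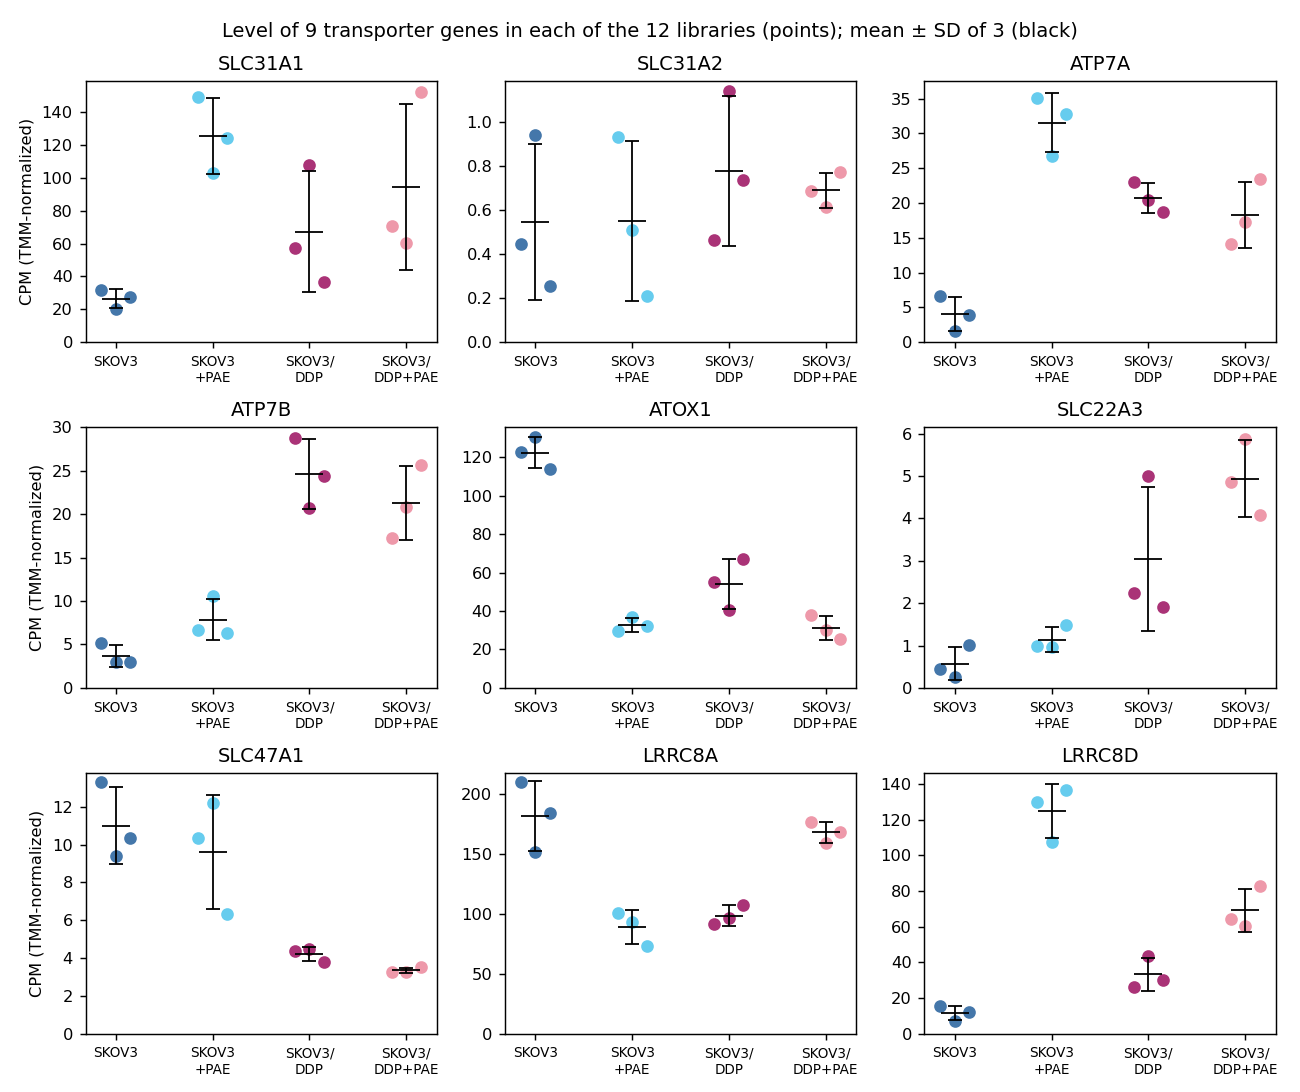
Levels of the 9 genes that passed the filter, in CPM (TMM-normalized) on a linear axis of its own for each gene, by group; points are the 3 libraries in order of replicate number, and black lines give the mean ± SD. ATP7B and SLC22A3 are higher and SLC47A1 lower in the SKOV3/DDP groups, and LRRC8D is lowest in untreated SKOV3, at 7.41 to 15.6 CPM. The levels shown still hold the trend on GC content and length. With it removed, LRRC8D averaged 38.4 CPM in SKOV3 and 23.7 in SKOV3/DDP, and SLC22A3 overlapped between these groups.

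Placed in order per kilobase, the levels shared both ends in all 4 groups, with ATOX1 at the top and SLC31A2, SLC22A3 and SLC22A2 at or near the bottom. In SKOV3 the order below ATOX1 was LRRC8A (34.5 ± 5.53 CPM per kb), SLC31A1 (5.58 ± 1.26), SLC47A1 (3.36 ± 0.624), LRRC8D (2.50 ± 0.879), ATP7A (0.474 ± 0.291) and ATP7B (0.295 ± 0.0999; SD, n = 3). SLC47A1 and LRRC8D, and ATP7A and ATP7B, lay within their spread of each other there. With the trend removed, which moves levels most in this group, LRRC8D (8.22 ± 1.19 CPM per kb) was above SLC47A1 (3.52 ± 0.371), ATP7A (2.33 ± 0.949) was above ATP7B (0.329 ± 0.0643), and LRRC8A (17.1 ± 1.70) and SLC31A1 (16.4 ± 0.243) overlapped. In SKOV3 with PAE, LRRC8D (26.7 ± 3.22) and SLC31A1 (26.4 ± 4.84) could not be separated, and both were above LRRC8A (16.9 ± 2.69). After removal LRRC8A had the highest mean of these 3, at 23.5 ± 4.48, against 18.6 ± 2.55 for SLC31A1, which it overlapped, and 17.7 ± 0.744 for LRRC8D. In SKOV3/DDP the order was LRRC8A (18.7 ± 1.59), SLC31A1 (14.1 ± 7.72), LRRC8D (7.12 ± 1.97), ATP7A (2.44 ± 0.254), ATP7B (1.96 ± 0.320) and SLC47A1 (1.29 ± 0.113). SLC31A1 overlapped both of its neighbours there. With the trend removed ATP7B (1.85 ± 0.256) had a higher mean than ATP7A (1.55 ± 0.126), with overlapping libraries. SLC31A1 (10.3 ± 5.33) then no longer overlapped LRRC8A (22.2 ± 2.03). In SKOV3/DDP with PAE, LRRC8A (31.9 ± 1.71) had a higher mean than SLC31A1 (19.9 ± 10.6) and LRRC8D (14.8 ± 2.57), and SLC31A1 overlapped both.

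Between the untreated lines, the question was which of these genes differ in the cisplatin-resistant cells. Relative to SKOV3, SKOV3/DDP had more ATP7B (6.39-fold), SLC22A3 (5.03-fold), ATP7A (4.96-fold), LRRC8D (2.74-fold) and SLC31A1 (2.44-fold), and less SLC47A1 (2.71-fold lower), ATOX1 (2.37-fold lower) and LRRC8A (1.92-fold lower). That makes 8 of 9 tested genes, 5 higher and 3 lower, in a comparison in which 84.7% of all 15323 genes passed the same threshold (46.1% higher and 38.5% lower), so the number called is close to that background. The members' median log2 fold change was 1.28, against 0.41 over all genes. With the trend removed, 5 members were called, against 69.8% of all genes, and the medians were −0.61 and 0.11.

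ATP7B and SLC47A1 gave nearly the same values with and without that removal. For ATP7B the log2 fold change was 2.67 ± 0.30 (SE, adjusted p = 4.43e-05) and 2.54 ± 0.24 after removal (adjusted p = 3.61e-05). Genes within 1 percentage point of its GC content had a median of −0.42. SLC47A1 was −1.44 ± 0.26 (adjusted p = 0.000767) and −1.33 ± 0.23 after removal (adjusted p = 0.00105). ATOX1 was also lower in both, at −1.24 ± 0.21 (adjusted p = 0.000588) and −0.80 ± 0.21 (adjusted p = 0.00806), although genes of its GC content had a median of 1.80. Scaling by library size alone left ATOX1 at −0.48 (adjusted p = 0.0917).

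The other 5 calls of this comparison did not hold in that form. SLC31A1 went from 1.28 ± 0.38 (adjusted p = 0.0125) to −0.60 ± 0.33 (adjusted p = 0.138) when the trend was removed, and ATP7A from 2.31 ± 0.43 (adjusted p = 0.00100) to −0.61 ± 0.31 (adjusted p = 0.109). Genes of like GC content had medians of 2.05 and 2.97, both above the members' own uncorrected values. SLC31A1 was 0.79 without SKOV3/DDP replicate 2 (adjusted p = 0.0240). Both channel subunits changed sign. LRRC8A was −0.94 ± 0.17 (adjusted p = 0.000833) and became 0.39 ± 0.15 (adjusted p = 0.0462), and LRRC8D was 1.45 ± 0.32 (adjusted p = 0.00261) and became −0.64 ± 0.24 (adjusted p = 0.0418). LRRC8A was −0.20 (adjusted p = 0.368) with scaling by library size alone. SLC22A3 kept its direction, at 2.33 ± 0.60 (adjusted p = 0.00603) and 1.18 ± 0.59 (adjusted p = 0.105), and was 3.03 without SKOV3 replicate 3 (adjusted p = 0.00497). The libraries of the untreated groups did not overlap for any of the 8 genes called, as for 86.5% of all genes, and 3 libraries against 3 cannot give an exact permutation p below 0.1.

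**Figure D2:**
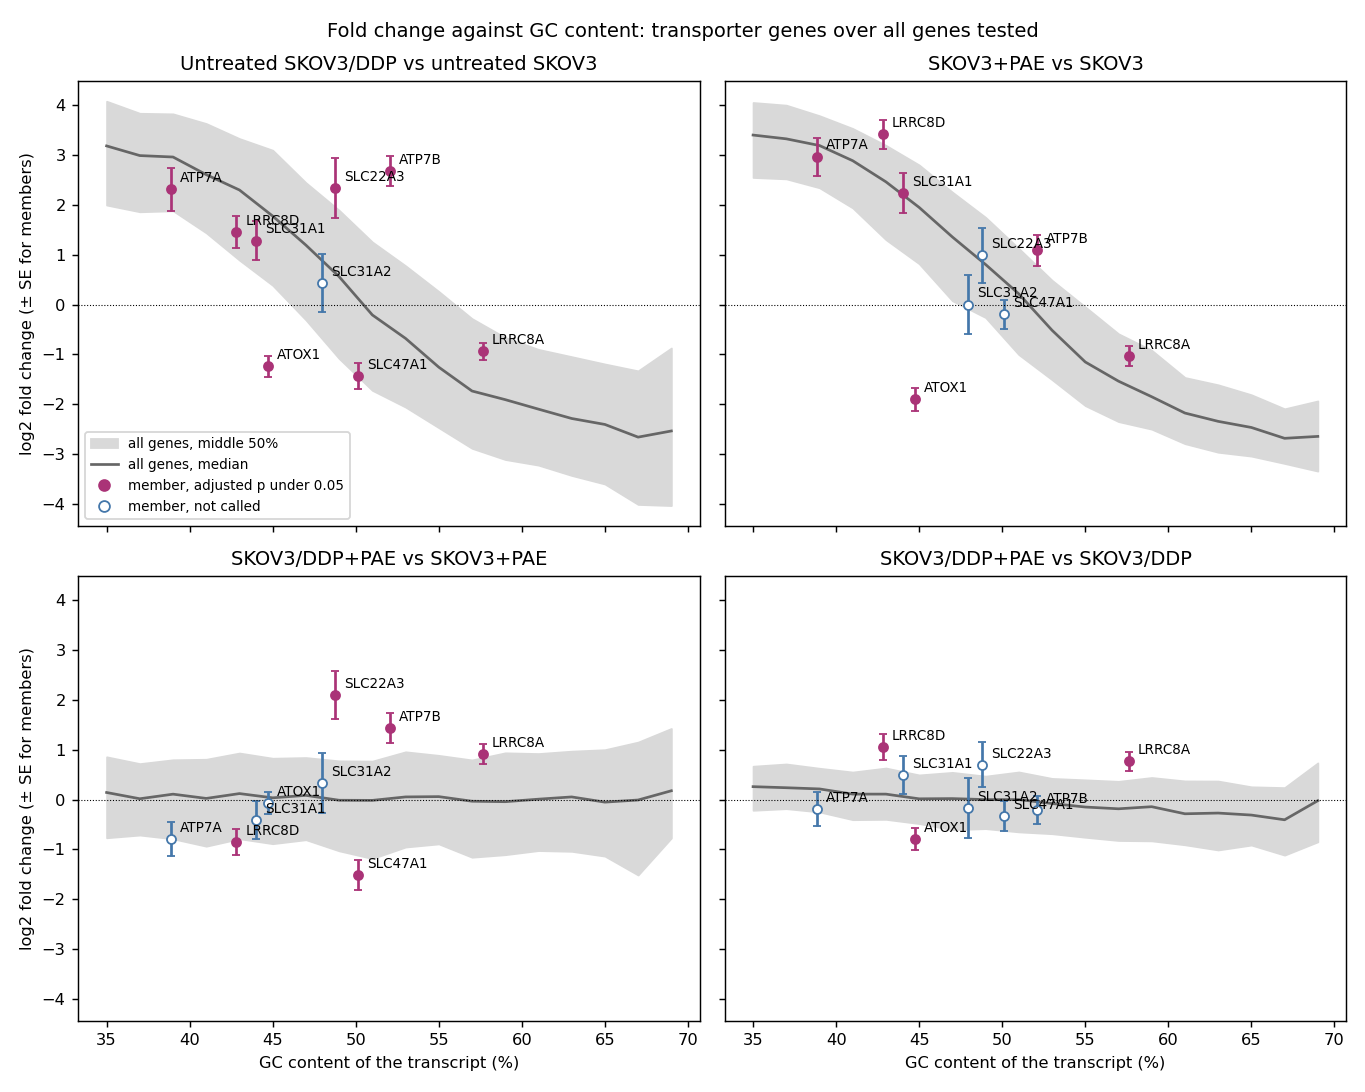
Log2 fold change (± SE) of each member against the GC content of its transcript (percent) in 4 comparisons, over the median (line) and the middle 50% (band) of all genes tested; filled points passed an adjusted p of 0.05. In both comparisons that use untreated SKOV3 the median falls steeply with GC content, with ATP7B above the band and ATOX1 below it, and in the other pair it is nearly flat.

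The effect of PAE in SKOV3 was read against the same untreated libraries. With PAE, LRRC8D was 10.7-fold, ATP7A 7.83-fold, SLC31A1 4.73-fold and ATP7B 2.13-fold higher, whereas ATOX1 was 3.74-fold and LRRC8A 2.04-fold lower. These 6 of 9 tested genes, 4 higher and 2 lower, compare with 75.3% of all 17133 genes called in this contrast (42.6% higher and 32.7% lower). The libraries did not overlap for the same 6 genes, as for 77.4% of all genes. SLC22A3 (0.99 ± 0.55, adjusted p = 0.113), SLC47A1 (−0.19 ± 0.29, adjusted p = 0.558) and SLC31A2 (adjusted p = 1) did not pass. The members' median was 0.99, and that of all genes 0.48. After removal of the trend these were −0.12 and 0.18.

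ATOX1 showed the least net change with the correction, with −1.90 ± 0.23 before (adjusted p = 1.82e-06) and −1.89 ± 0.20 after it (adjusted p = 5.63e-06), where genes of its GC content had a median of 2.02. The correction was fitted on GC content and length together. For this short gene (471 bases) their parts may offset each other, and they were not separated. ATP7B rose in both forms, by 1.09 ± 0.31 (adjusted p = 0.00475) and 0.98 ± 0.24 (adjusted p = 0.00459). LRRC8D rose in both as well, by 3.41 ± 0.30 (adjusted p = 7.14e-08) and by the smaller 1.10 ± 0.19 (adjusted p = 0.000329), with a median of 2.55 among genes of like GC content. The values of ATP7A and SLC31A1 came close to 0 after removal. ATP7A went from 2.97 ± 0.38 (adjusted p = 3.84e-06) to −0.16 ± 0.25 (adjusted p = 0.614), and SLC31A1 from 2.24 ± 0.40 (adjusted p = 0.000115) to 0.18 ± 0.33 (adjusted p = 0.680). LRRC8A reversed, from −1.03 ± 0.20 (adjusted p = 0.000212) to 0.46 ± 0.16 (adjusted p = 0.0296). After removal 4 members were called, against 50.3% of all genes. This comparison and that of the untreated lines share the untreated SKOV3 libraries, so like values in both are not independent.

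Scaling mattered here too. Without TMM factors all genes had a median of 1.36 instead of 0.48, and the calls went over all genes from 7292 higher and 5603 lower to 9058 and 3834. Among the members, LRRC8A was then −0.15 (adjusted p = 0.520), SLC22A3 1.85 (adjusted p = 0.00524) and SLC47A1 0.69 (adjusted p = 0.0484), while ATOX1 stayed lower at −1.01 (adjusted p = 0.00124).

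In SKOV3/DDP, PAE was followed by more mRNA of both channel subunits and less of the copper chaperone. LRRC8A rose 1.70-fold, from 98.7 ± 8.38 to 168 ± 8.99 CPM, and LRRC8D 2.08-fold, from 33.3 ± 9.20 to 69.1 ± 12.03 CPM, while ATOX1 fell 1.73-fold, from 54.0 ± 13.2 to 31.2 ± 6.12 CPM (SD, n = 3). These 3 of 9 tested genes compare with 26.4% of all genes called (11.8% higher and 14.7% lower), and with 32.7% once the trend was removed, which left the same 3 called. For LRRC8A the log2 fold change was 0.77 ± 0.20 (adjusted p = 0.0106) and 0.95 ± 0.16 with the trend removed (adjusted p = 0.000837). For LRRC8D it was 1.05 ± 0.27 (adjusted p = 0.0107) and 0.97 ± 0.18 (adjusted p = 0.00163). Both stayed below an adjusted p of 0.05 whichever library was left out.

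ATOX1, at −0.79 ± 0.22 (adjusted p = 0.0168) and −0.71 ± 0.20 with the trend removed (adjusted p = 0.0136), was less firm. Its adjusted p rose to 0.0655 without SKOV3/DDP replicate 1, to 0.118 without SKOV3/DDP replicate 3, to 0.0668 without SKOV3/DDP with PAE replicate 2, to 0.0772 without SKOV3/DDP with PAE replicate 3, and to 0.0611 with scaling by library size alone. The remaining 6 genes did not pass. SLC31A1 was 0.49 ± 0.38 (adjusted p = 0.370), SLC22A3 0.70 ± 0.45 (adjusted p = 0.276) and SLC47A1 −0.33 ± 0.30 (adjusted p = 0.444). ATP7A at −0.18 ± 0.34 (adjusted p = 0.740), ATP7B at −0.21 ± 0.29 (adjusted p = 0.625) and SLC31A2 at −0.17 ± 0.59 (adjusted p = 0.880) were nearer to 0 than their SE. The libraries did not overlap for the 3 genes called and for SLC47A1, as for 45.1% of all genes. Scaling by library size alone turned the calls over all genes from 2014 higher and 2512 lower into 2889 and 1913, without changing the direction of the 3 members called.

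The lines were also compared with each other under PAE. This contrast sets no untreated SKOV3 library against another group, and its fold change was unrelated to GC content across genes (Spearman's rho −0.008). It came from the fit of all 12 libraries, so filter, scaling and spread were estimated with untreated SKOV3 among them. SKOV3/DDP with PAE had 4.30-fold more SLC22A3, 2.70-fold more ATP7B and 1.89-fold more LRRC8A than SKOV3 with PAE, with 2.87-fold less SLC47A1 and 1.80-fold less LRRC8D. These 5 of 9 tested genes, 3 higher and 2 lower, compare with 54.5% of all genes called (27.5% higher and 27.1% lower). With the trend removed 6 members were called, against 59.9% of all genes.

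The largest of these was SLC22A3 at 2.10 ± 0.48 (adjusted p = 0.00179), from 1.14 ± 0.287 to 4.93 ± 0.904 CPM. SLC47A1 was −1.52 ± 0.30 (adjusted p = 0.000589), ATP7B 1.43 ± 0.29 (adjusted p = 0.000780) and LRRC8A 0.92 ± 0.20 (adjusted p = 0.00112), and each of these 4 genes passed under every alternative that tested it and used the adjusted p (the strictest filter on counts left SLC22A3 out). LRRC8D was −0.85 ± 0.27 (adjusted p = 0.0140) and −0.76 without SKOV3/DDP with PAE replicate 2 (adjusted p = 0.0532). ATP7A did not pass, at −0.79 ± 0.34 (adjusted p = 0.0644), although its libraries did not overlap. It was called lower in 7 of 16 alternatives. Among these were removal of the trend (−0.83 ± 0.23, adjusted p = 0.00716) and a fit of only the libraries compared (−0.86, adjusted p = 0.00915). DESeq2 (adjusted p = 0.0403) and limma-voom (adjusted p = 0.0199) called it too. SLC31A1 did not pass either, at −0.41 ± 0.38 (adjusted p = 0.384), and was −0.93 without SKOV3/DDP with PAE replicate 3 (adjusted p = 0.0486). ATOX1 was −0.07 ± 0.22 (adjusted p = 0.802) and SLC31A2 0.33 ± 0.60 (adjusted p = 0.666). Groups did not overlap for 61.2% of all genes.

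**Figure D3:**
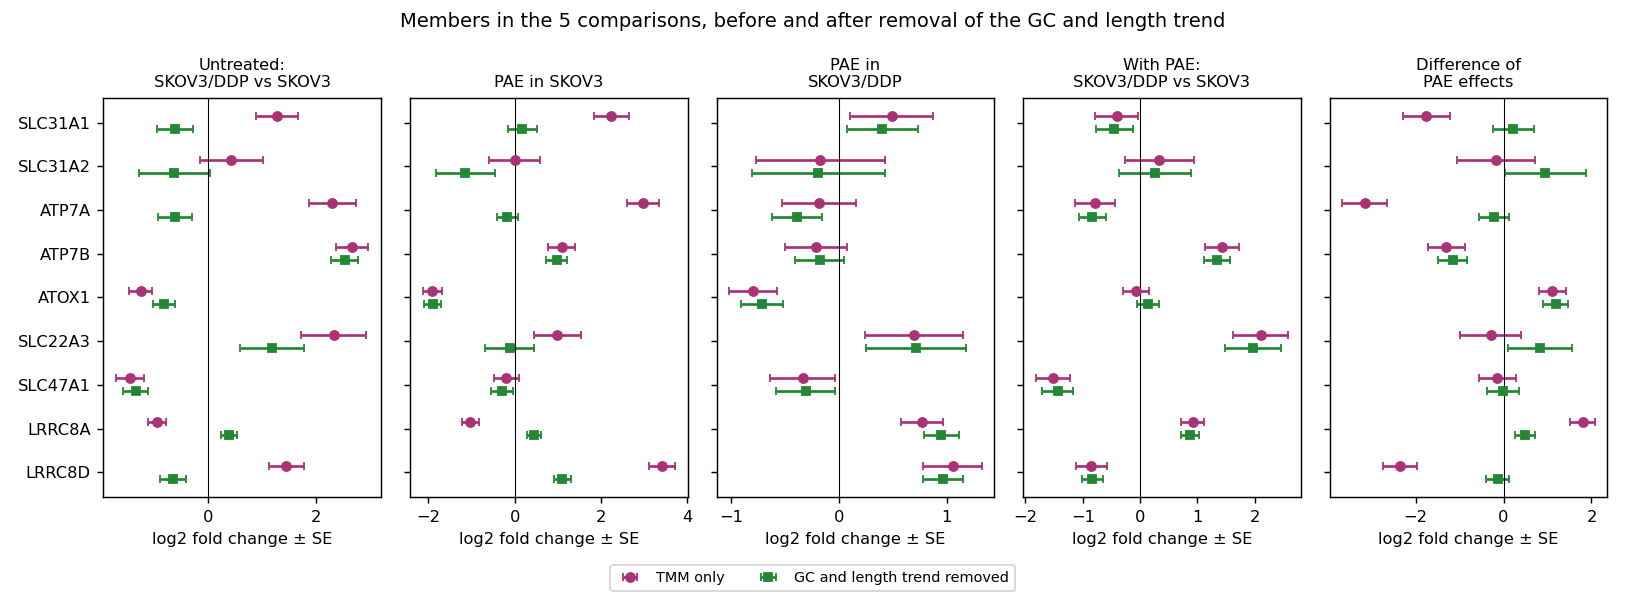
Log2 fold change (± SE) of the 9 tested members in the 5 comparisons, with TMM normalization only (circles) and with the trend on GC content and length removed (squares); each panel has its own axis. Values for SLC31A1, ATP7A, LRRC8A and LRRC8D move far between both forms wherever untreated SKOV3 is used, and little for PAE in SKOV3/DDP or between the lines under PAE.

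Whether PAE acted differently in the lines was tested as an interaction, the log2 effect in SKOV3/DDP minus that in SKOV3. ATP7B (−1.30 ± 0.42, adjusted p = 0.0136) and ATOX1 (1.108 ± 0.312, adjusted p = 0.00601) differed and remained so with the trend removed, at −1.15 ± 0.33 (adjusted p = 0.0130) and 1.18 ± 0.28 (adjusted p = 0.00365). ATP7B rose with PAE in SKOV3, where it was low, and was −0.21 ± 0.29 in SKOV3/DDP (adjusted p = 0.625). ATOX1 fell more in SKOV3. In all 6 members were called, 2 higher and 4 lower, against 62.9% of all genes (25.5% higher and 37.4% lower). The other 4 were SLC31A1 at −1.75 ± 0.55 (adjusted p = 0.0111), ATP7A at −3.15 ± 0.51 (adjusted p = 6.57e-05), LRRC8A at 1.80 ± 0.28 (adjusted p = 4.48e-05) and LRRC8D at −2.36 ± 0.39 (adjusted p = 7.50e-05). None of these 4 passed with the trend removed (42.3% of all genes did), where they were 0.22 ± 0.46, −0.22 ± 0.34, 0.49 ± 0.23 and −0.14 ± 0.26 (adjusted p = 0.742, 0.640, 0.101 and 0.722). ATOX1 was 0.38 (adjusted p = 0.344) with scaling by library size alone, under which the calls over all genes went from 4374 higher and 6404 lower to 3088 and 7808.

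The composition of the LRRC8 family was calculated per length in each library, since LRRC8A assembles with LRRC8B, LRRC8C, LRRC8D or LRRC8E and the partner sets what the channel conducts. LRRC8A made up 74.3% ± 2.08 of family mRNA in SKOV3, 31.3% ± 4.71 in SKOV3 with PAE, 51.1% ± 5.25 in SKOV3/DDP and 54.0% ± 4.25 in SKOV3/DDP with PAE. LRRC8D made up 5.28% ± 1.22, 49.3% ± 5.29, 19.1% ± 3.54 and 24.8% ± 2.08 (SD, n = 3). Thus LRRC8D mRNA exceeded that of LRRC8A per length in all SKOV3 libraries with PAE and in no other library. With the trend removed LRRC8A led in all 12 libraries. LRRC8D was then 24.4% ± 1.25 in SKOV3, 36.5% ± 4.54 in SKOV3 with PAE, 13.2% ± 2.36 in SKOV3/DDP and 15.1% ± 0.893 in SKOV3/DDP with PAE. On either scale its share was higher with PAE than without in SKOV3 and, with PAE, higher in SKOV3 than in SKOV3/DDP. The untreated lines changed their order with the scale.

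**Figure D4:**
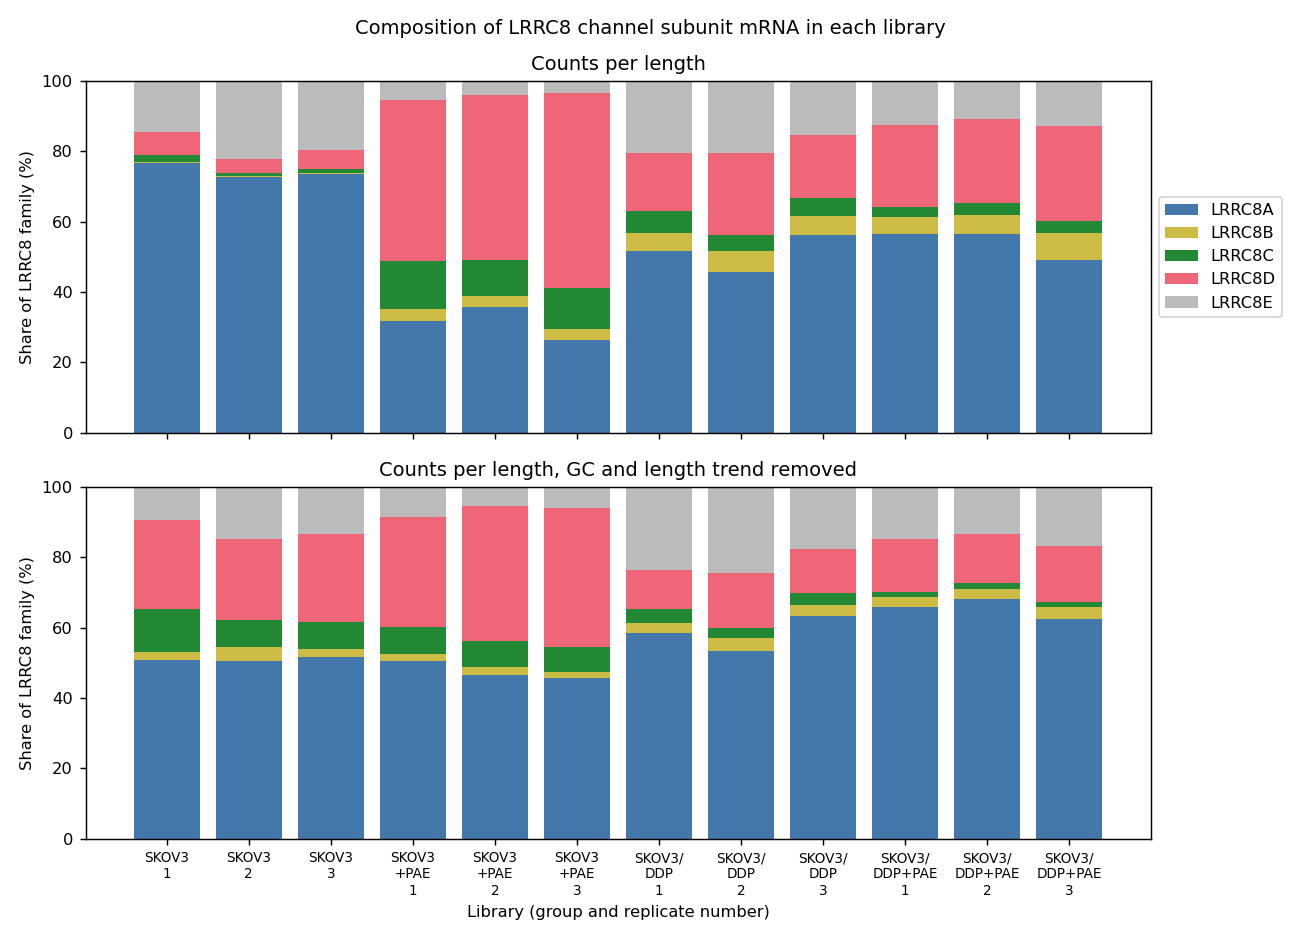
Share (%) of each LRRC8 subunit in the summed family mRNA per length, in each of the 12 libraries, before (top) and after (bottom) removal of the trend on GC content and length. LRRC8D takes 45.8% to 55.4% of the family in SKOV3 with PAE before removal and 31.3% to 39.6% after it.

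Of the other LRRC8 subunits, all 3 differed between the lines under PAE, where 54.5% of all genes did. LRRC8B, which was 2.16 ± 0.435 CPM in SKOV3, 22.0 ± 4.41 in SKOV3 with PAE, 26.5 ± 4.08 in SKOV3/DDP and 46.9 ± 15.0 in SKOV3/DDP with PAE, was higher in SKOV3/DDP with PAE than in SKOV3 with PAE (log2 fold change 1.09 ± 0.26, adjusted p = 0.00223). LRRC8E was also higher (1.59 ± 0.26, adjusted p = 0.000103), and LRRC8C was lower (−1.78 ± 0.33, adjusted p = 0.000329). PAE in SKOV3/DDP raised LRRC8B (0.82 ± 0.26, adjusted p = 0.0283) but not LRRC8C or LRRC8E beyond the threshold. In SKOV3, PAE went with higher LRRC8B (3.34) and LRRC8C (3.46) and lower LRRC8E (−1.86), which were 0.00, 0.21 and −0.33 with the trend removed, none of them then called. Between the untreated lines 2 of 3 were called higher (84.7% of all genes were called), LRRC8B at 3.55 and LRRC8C at 1.69. After removal these were 0.39 (adjusted p = 0.195) and −1.33 (adjusted p = 0.00318), and LRRC8E went from −0.37 to 1.03 (adjusted p = 0.00187).

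The balance of the copper ATPases was compared per length. The ratio of ATP7A to ATP7B was 1.88, 0.801 and 1.94 in SKOV3, 7.82, 3.75 and 7.59 in PAE-treated SKOV3, 1.18, 1.46 and 1.13 in SKOV3/DDP, and 1.21, 1.22 and 1.35 in SKOV3/DDP with PAE. All SKOV3 libraries with PAE were therefore above the SKOV3/DDP libraries, while untreated SKOV3 overlapped them. With the trend removed the mean ratio was 7.15 ± 2.66 in SKOV3, 3.37 ± 0.725 in SKOV3 with PAE, 0.843 ± 0.0967 in SKOV3/DDP and 0.725 ± 0.0485 in SKOV3/DDP with PAE (SD, n = 3). Untreated SKOV3 then no longer overlapped the SKOV3/DDP libraries, and it lay above SKOV3 with PAE instead of below it. In every SKOV3/DDP library, with or without PAE, ATP7A exceeded ATP7B per length before removal and lay below it after (ratios 0.670 to 0.954).

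Genes that hand copper to enzymes or assemble cytochrome c oxidase were described from a list of 11, of which all were tested. The counts of this and the next lists stand against the shares of all genes called, which were 84.7% between the untreated lines, 75.3% for PAE in SKOV3, 26.4% for PAE in SKOV3/DDP, 62.9% for the interaction and 54.5% between the lines under PAE. PAE in SKOV3/DDP moved 1 of them, COA6, an assembly factor of cytochrome c oxidase, from 16.7 ± 2.68 to 39.1 ± 10.9 CPM (log2 fold change 1.23 ± 0.31, adjusted p = 0.00976). Between the lines under PAE, 2 were higher and 1 lower: COA6 (0.85 ± 0.30, adjusted p = 0.0284) and COX19 (0.57 ± 0.22, adjusted p = 0.0390) were higher, and SLC25A3, the mitochondrial carrier of phosphate and copper, was lower (−0.62 ± 0.20, adjusted p = 0.0170). Between the untreated lines 3 were higher (XIAP, SCO1 and COX11) and 5 lower (CCS, COX17, SCO2, SOD1 and SLC25A3). With PAE in SKOV3 the same 3 were higher and 5 lower (CCS, COX17, SCO2, SOD1 and COX19). After removal these counts became 2 higher and 6 lower (69.8% of all genes called), and 1 higher and 5 lower (50.3%). SOD1, superoxide dismutase, then turned from −1.56 to 0.75 (adjusted p = 0.00251) and from −0.84 to 1.28 (adjusted p = 0.000170), and neither SCO1 nor COX11 was called. In the former, CCS (the chaperone of superoxide dismutase) was −3.09, XIAP 2.33 and COX17 −1.79, and with the trend removed 0.01 (adjusted p = 0.972), −0.70 (adjusted p = 0.0250) and −2.99 (adjusted p = 0.000344). In the latter, CCS was −3.45, XIAP 2.47 and SCO1 1.68, against −0.21 (adjusted p = 0.282), −0.77 (adjusted p = 0.0137) and −0.48 (adjusted p = 0.0712) after removal. COX17, which carries copper to cytochrome c oxidase, was thus lower in untreated SKOV3/DDP on both scales. For the interaction 3 were higher (CCS, COX17 and SOD1) and 3 lower (XIAP, SCO1 and COX11), led by CCS (3.29), XIAP (−2.48) and COX17 (2.04), which became 0.35 (adjusted p = 0.213), 0.54 (adjusted p = 0.197) and 3.50 (adjusted p = 0.000121). The whole list then had 4 higher and 1 lower, against 42.3% of all genes called.

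In the list of copper reductases, storage and sensing genes, HEPH and STEAP4 differed more between the lines than any gene of the other 4 lists, the cell type markers apart. The median log2 fold change of this list under PAE was −0.68, against 1.19 for the other organic cation and MATE carriers and 1.09 for the other LRRC8 subunits. HEPH (hephaestin, a copper ferroxidase of enterocytes) had no count in either SKOV3 group. It measured 106 ± 14.7 CPM in SKOV3/DDP and 53.2 ± 21.2 with PAE, at least 1232-fold and at least 970-fold higher than in SKOV3 without and with PAE, taking 3 counts over a group as the floor. The intestinal epithelial markers described above were likewise far higher in both SKOV3/DDP groups, and their part in this difference was not tested. The metalloreductase STEAP4 had no count in SKOV3/DDP and 10.9 ± 7.58 CPM in SKOV3, at least 177-fold higher. Under PAE it had 21023 counts in SKOV3 and 1 in SKOV3/DDP, a ratio of 22504 (95% exact counting interval 4039 to 888900). That interval is for counting error only, over the pooled libraries of each group, and leaves out the spread between libraries. STEAP2 was also lower in SKOV3/DDP under PAE (1.67 ± 0.252 against 43.3 ± 0.984 CPM, log2 fold change −4.69 ± 0.34, adjusted p = 3.08e-08). Under PAE 2 of 10 tested genes of this list were higher in SKOV3/DDP (HEPH and PRNP; 27.5% of all genes were higher and 27.1% lower) and 5 lower (STEAP1, STEAP2, STEAP3, STEAP4 and CYBRD1), and between the untreated lines 6 were higher and 3 lower (STEAP1, STEAP3 and STEAP4), among the former SP1, a transcription factor that binds GC boxes (3.25, and 1.31 with the trend removed, adjusted p = 0.000693). After removal 4 were higher and 3 lower between the untreated lines, with STEAP3 at 0.11 (adjusted p = 0.767) and STEAP2 now lower, at −3.30 (adjusted p = 8.67e-05).

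Within SKOV3/DDP, PAE was followed by 1 higher and 2 lower of the same 10 genes. STEAP3, a metalloreductase of endosomes, fell from 20.1 ± 9.78 to 3.45 ± 1.19 CPM (−2.54 ± 0.35, adjusted p = 0.000230) and HEPH by 1.00 ± 0.29 on the log2 scale (adjusted p = 0.0261). MTF1, the transcription factor that binds metal response elements, rose by 0.94 ± 0.29 (adjusted p = 0.0270). In SKOV3 8 were higher and 1 lower with PAE, where 75.3% of all genes were called, and 7 and 0 with the trend removed, where 50.3% were. STEAP4 was 5.10 and then 1.96 (adjusted p = 0.000550), STEAP2 4.19 and then 0.79 (adjusted p = 0.0237), and SP1 3.31 and then 1.27 (adjusted p = 0.000109). For the interaction none were higher and 8 lower (6 with the trend removed), with STEAP2 at −4.65 (−1.48 after removal), SP1 at −3.57 (−1.59) and CYBRD1, a ferric and cupric reductase of the plasma membrane, at −3.34 (−0.91).

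Lipoylated enzymes are the targets of copper in cuproptosis, and FDX1, LIAS and LIPT1 serve their lipoylation. The list of 10 genes also held PDHA1, PDHB and DLD, which are other subunits of these enzyme complexes. Of this list, SKOV3/DDP under PAE had 2 higher (LIPT1 and LIAS) and 6 lower than SKOV3 under PAE, against 54.5% of all genes called. GCSH, the lipoyl carrier of the glycine cleavage system, was lowest (−2.09 ± 0.22, adjusted p = 1.78e-06), LIPT1 was higher (1.73 ± 0.29, adjusted p = 0.000156) and DLD was lower (−1.09 ± 0.27, adjusted p = 0.00350). In SKOV3/DDP PAE moved LIPT1 and GCSH, with LIPT1 at 1.41 ± 0.29 (adjusted p = 0.00317) and GCSH at −1.23 ± 0.22 (adjusted p = 0.00122), and none of the other 8. The 6 higher and 3 lower between the untreated lines, and the 7 higher with PAE in SKOV3, became 1 higher and 4 lower, and 1 higher and 2 lower, with the trend removed. Their leading genes DBT (3.12 and 3.44), DLD (2.67 and 3.47) and DLAT (1.45 and 1.91) are all under 44% GC, and after removal only DLD with PAE in SKOV3 was called (0.67, adjusted p = 0.0233). For the interaction 1 was higher and 8 lower, led by DLD (−3.82), DBT (−3.56) and DLAT (−2.18), of which DLD alone was called after removal (−1.18, adjusted p = 0.00792). The whole list then had 2 higher and 1 lower, against 42.3% of all genes called.

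The remaining organic cation and MATE carriers were a list of 6, of which 4 were tested and SLC22A16 and SLC47A2 were too low. Under PAE SKOV3/DDP had more SLC22A18 (2.32 ± 0.49, adjusted p = 0.000931) and SLC29A4 (PMAT, a monoamine and cation carrier; 2.13 ± 0.36, adjusted p = 0.000153), and less SLC22A4, the ergothioneine carrier (−1.03 ± 0.30, adjusted p = 0.00884). SLC29A4 was also higher between the untreated lines, by 1.01 ± 0.20 (adjusted p = 0.00133), where it was the 1 gene higher and SLC22A4 the 1 lower. After removal 2 were higher, SLC29A4 by 2.53 (adjusted p = 6.88e-06) and SLC22A18 by 1.91 (adjusted p = 0.000621), and 2 lower, SLC22A4 and the carnitine carrier SLC22A5 (−0.72, adjusted p = 0.00777). PAE in SKOV3/DDP left 1 higher (SLC22A4) and 1 lower, the latter SLC29A4 at −0.99 ± 0.34 (adjusted p = 0.0436). In SKOV3 0 were higher and 2 lower. The latter were SLC22A18 at −2.58 and SLC29A4 at −2.05, neither called after removal (adjusted p = 0.250 and 0.337), when SLC22A5 was lower (−0.59, adjusted p = 0.0129). The interaction called SLC22A18 alone (2.24, adjusted p = 0.00796), and not after removal (adjusted p = 0.490), when SLC22A5 was called (1.15, adjusted p = 0.00223).

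**Figure D5:**
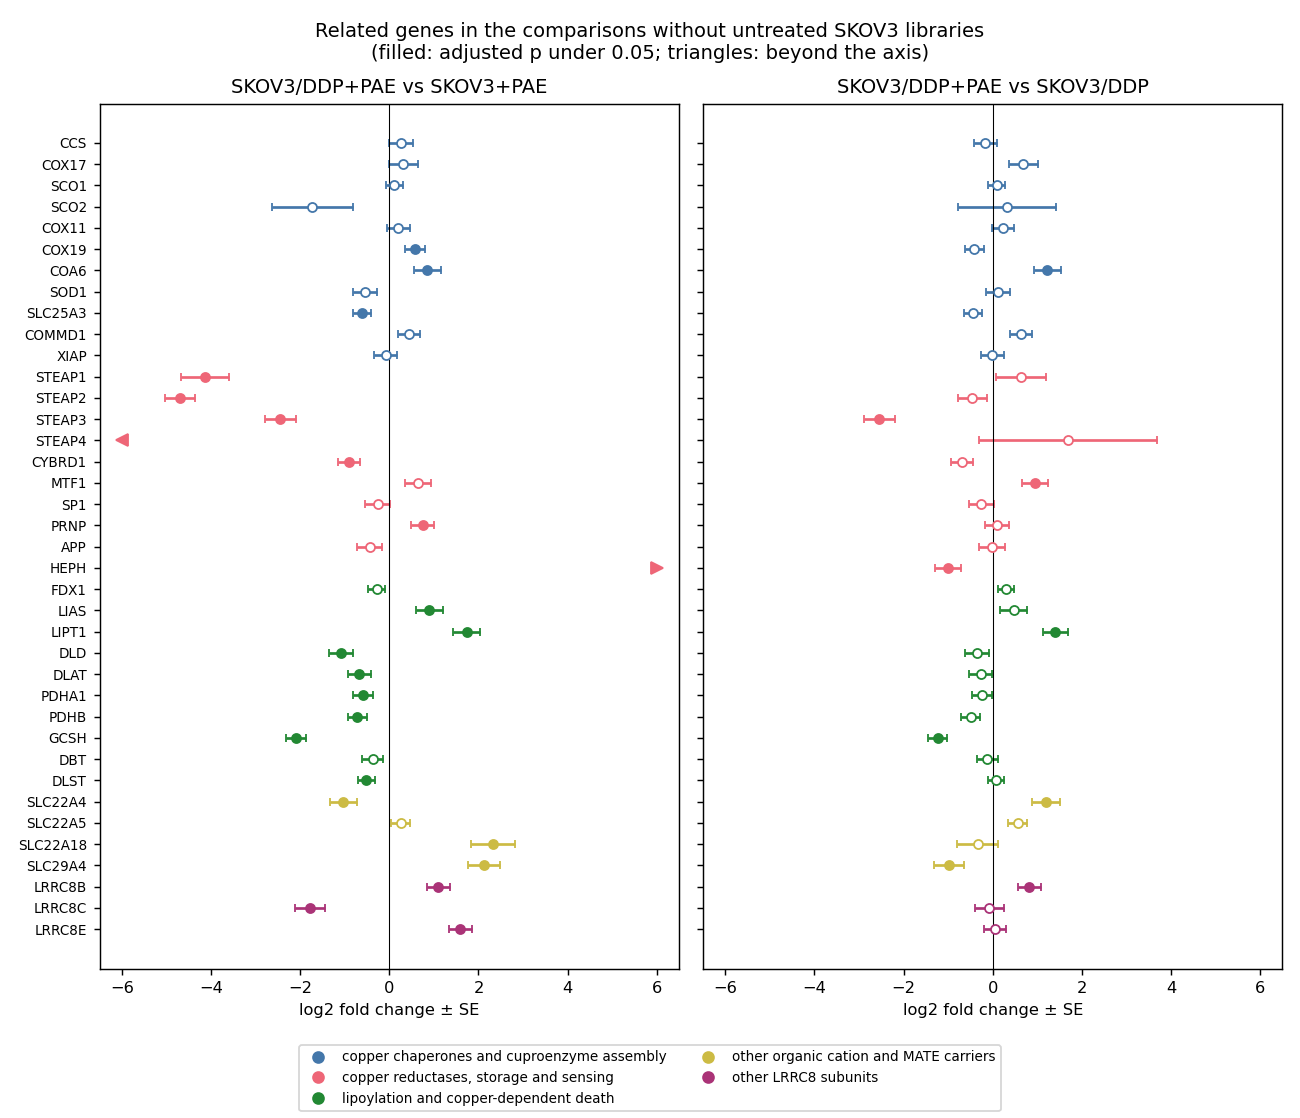
Log2 fold change (± SE) of the related genes that were tested, by list, in the comparisons between groups other than untreated SKOV3. Both come from the fit of all 12 libraries, untreated SKOV3 included. Filled points passed an adjusted p of 0.05 and triangles lie beyond the axis. STEAP4 and HEPH differ most between the lines under PAE (left), and few genes pass for PAE in SKOV3/DDP (right).

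As a description, the genes whose levels ran most nearly parallel to 5 members over the 12 libraries were sought among 9942 genes, by Pearson's r of log2(CPM + 0.5). The libraries share groups and the GC trend, so r reflects these. ATP7A ran with USP9X (r = 0.995) and ATE1 (r = 0.995), LRRC8D with MTUS1 (r = 0.992) and RBBP8 (r = 0.987), and SLC31A1 with CDV3 (r = 0.977) and NFE2L2 (r = 0.961). All 6 of these partners had a GC content between 40.0% and 45.6%, close to that of the members they followed. ATP7B ran with CLUAP1 (r = 0.983) and CRACD (r = 0.983), and LRRC8A with C2CD2L (r = 0.966) and TRIM62 (r = 0.962), at 51.1% to 58.9% GC.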

How the data were processed

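Poly-T-selected RNA was sequenced in 12 libraries, 3 for each line with or without PAE. The authors deposited, for each library, whole-number counts per gene without normalization, with coordinates on GRCh38. The submitters' processing notes name HISAT2 2.0.5, StringTie 1.3.3b, DESeq2 and edgeR; the counting program and its use of strand are not given in the sources used here. Loci without a gene name (0.126% to 0.678% of counts) were left out.

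Counts were filtered with filterByExpr, normalized with TMM factors and tested with the quasi-likelihood test of edgeR 4.0.16 in R 4.3.3, with Benjamini-Hochberg adjustment over all genes tested and a threshold of 0.05. The untreated lines were compared in a fit of 6 libraries (15323 genes). The other contrasts came from 1 fit of all 12 (17133 genes). SE was computed as |log2 fold change|/√F. CPM are TMM-normalized over the 12 libraries. The trend on GC content and length was fitted in each library (splines, 5 degrees of freedom; only genes whose mean log2 CPM reached 2) and entered as offsets. GC content came from GENCODE 29 and was known for 91.2% and 88.0% of the genes tested in the 2 fits.

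The alternatives were DESeq2 1.42.0, limma-voom (limma 3.58.1), library size only, other filters, the replicate number as a block, the methods' criteria (read here as p under 0.05 before adjustment, with a log2 fold change beyond 2 in size), other sets of libraries in the fit, and each library left out. The methods do not say whether p was adjusted. All 10 members were named. From each related list and comparison, at most 3 genes were named, by size of log2 fold change among those called with at least 10 CPM in the higher group, besides all LRRC8 subunits; list genes named beyond that were chosen after their values were seen. Besides the 6 organic cation and MATE carriers listed, 1 gene is not reported here. The members, lists and comparisons were chosen with earlier results of these data known. Fits were also run on simulated counts, part of them with a straight trend on GC content in untreated SKOV3 only. That differs from the trend in the data, and no value above rests on that run. Replicate numbers did not pair libraries across groups (correlations of deviations −0.130 to 0.105), and no library duplicated another.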

Additional observations from a re-analysis of the deposited data

Results flagged for a closer look

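The log2 effect of PAE differed between SKOV3/DDP and SKOV3 by the interaction test of the quasi-likelihood fit for 6 members of 9 tested, against 62.9% of all genes: SLC31A1 by −1.75, ATP7A by −3.15, ATP7B by −1.30, ATOX1 by 1.108, LRRC8A by 1.80 and LRRC8D by −2.36. After removal of the trend on GC content and length, ATP7B and ATOX1 differed at an adjusted p under 0.05 and the other four did not. Groups of 3 libraries are too small for a check of single outlying values.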

How the results depend on the processing

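With the methods' criteria, read as an unadjusted p and a fold limit, the members called fell from 8 to 3 between the untreated lines, from 6 to 3 for PAE in SKOV3, from 3 to 0 for PAE in SKOV3/DDP, from 6 to 2 for the interaction and from 5 to 1 between the lines under PAE. With the trend on GC content and length removed they were 5, 4, 3, 2 and 6, and with the replicate block added 3 between the untreated lines and 2 for the interaction. The replicate block alone changed no member's call. Over all genes, calls moved by more than 1.5 times for PAE in SKOV3 (12895 to 7586 with the trend removed and 7107 with the replicate block added), for PAE in SKOV3/DDP (4526 to 1218 under the methods' criteria, and 2815 or 2837 when replicate 1 or 3 of SKOV3/DDP was left out), for the interaction (10778 to 6376 and 5986) and between the lines under PAE (9346 to 4220 under the methods' criteria).

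Directions reversed with the trend removed, and in parentheses with the replicate block added, as follows. Between the untreated lines SLC31A1 became −0.60 (−0.73), SLC31A2 −0.61 (−0.55), ATP7A −0.61 (−0.54), LRRC8A 0.39 (0.39) and LRRC8D −0.64 (−0.66). For PAE in SKOV3 ATP7A became −0.16 (−0.13), SLC22A3 −0.12 (−0.12) and LRRC8A 0.46 (0.46). For the interaction SLC31A1 became 0.22 (0.23), SLC31A2 0.95 (0.95) and SLC22A3 0.83 (0.88), and SLC47A1 turned with the block added (0.016) and not without it. Between the lines under PAE ATOX1 became 0.14 (0.13). These offsets were built from GC content and length, and the cause of the trend was not tested.

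The other reversals concern members that were not called. For PAE in SKOV3, SLC31A2 was 0.87 with library size only, 0.050 without a filter and 0.027 with the replicate block, and SLC47A1 0.69 with library size only. For PAE in SKOV3/DDP, SLC31A2 was 0.017 with library size only. For the interaction, DESeq2 gave 0.12 for SLC31A2 and 0.13 for SLC47A1. Leaving out 1 library gave, for PAE in SKOV3, −0.58 to 0.64 for SLC31A2 and −0.40 to 0.039 for SLC47A1. For PAE in SKOV3/DDP it gave −0.40 to 0.20 for SLC31A2 and −0.36 to 0.0075 for ATP7A. For the interaction the range was −0.81 to 0.45 for SLC31A2, −0.998 to 0.25 for SLC22A3 and −0.34 to 0.10 for SLC47A1, and between the lines under PAE −0.062 to 0.91 for SLC31A2 and −0.23 to 0.055 for ATOX1. Among the values of single members under all alternatives, 659 kept direction and side of the threshold, 47 reversed direction, 39 lost the call and 10 gained it. The interaction already uses all 12 libraries, so restricting its fit gave no other value. The causes were not tested. Counts of SLC22A2, SLC31A2 and SLC22A3 are too few for small differences to be detected.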
